A study of Mus musculus with 7 samples.

Results

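Of the 7 dual-dye arrays in this series, 3 set RNA of the pancreatic lymph node (PLN) against RNA of the inguinal lymph node (ILN), and these 3 were chosen by their titles. They held FVB, NOD and NOD.B10 mice, a single array for each strain, so that the strains served as the replicates. On each of them the PLN sample was labelled with Cy5 and the ILN sample with Cy3, with no dye swap, so that a gene-specific dye effect and a difference between the nodes cannot be told apart. Each sample was a pool of 5 female mice aged 12 weeks, and no treatment was given in the labels. For the NOD.B10 samples the strain entry reads NOD while the title and source name read NOD.B10, and the latter were followed. The other 4 arrays compared PLN (Cy5) with the mesenteric node (MLN, Cy3) in BALB/c, FVB, NOD and NOD.B10 mice. They entered the fit only to share its estimate of the spread. Whether the PLN pools were the same RNA on both kinds of array was not given in the sources used here, so values against ILN and MLN are set side by side only.

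A lymph node filters the lymph of the tissue it drains: the PLN receives lymph from the pancreas and neighbouring viscera, the ILN from skin and the subcutaneous mammary fat pad. Lymph enters under the capsule and passes through sinuses lined by lymphatic endothelium and macrophages, while lymphocytes enter from blood through high endothelial venules and move along a scaffold of reticular fibroblasts. Nodes of the gut and of the skin are known to differ in vascular addressins, in retinoic acid handling and in the migratory cells that reach them.

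A log2 ratio of PLN over ILN is used throughout: a value of 0 is an equal signal in both nodes and a negative value a lower signal in PLN. The share of probes well above background ranged over the 3 arrays from 46.0% to 56.5% for PLN and from 67.6% to 88.9% for ILN. The naive T cell receptor gene Ccr7 and the venule mucin gene Glycam1 were well above background in both channels of all 3 arrays. Their log2 levels lay within 9.82 to 13.4 in both nodes. limma tested 29933 genes and unnamed probes. Over 29834 of them measured on all 3 arrays the ratios of FVB and NOD correlated at r = 0.445, of FVB and NOD.B10 at 0.621 and of NOD and NOD.B10 at 0.693 (Spearman's rho 0.173, 0.527 and 0.413), across genes of arrays that share the dye orientation and platform. RNA came from whole nodes, so fewer cells of a type and less RNA per cell cannot be told apart.

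Between PLN and ILN 589 genes (1.97% of those tested) passed an adjusted p of 0.05, 451 of them higher in PLN (1.51%) and 138 lower (0.461%). Outside a list of pancreatic acinar genes, which held the largest differences, the named genes that were higher included many of macrophages, sinus lining and matrix, and those that were lower included monocyte-attracting chemokines, genes of naive T and natural killer cells and small calcium-binding proteins. A mean difference of at least 2-fold was reached by 49 of the higher and 6 of the lower genes, and 13 of these 49 belong to the acinar list. Of the other 36, 20 carry a gene name and 16 are probes with no symbol here. The count rested strongly on single arrays and on the scaling: it was 39 without the NOD.B10 array, 378 without the FVB array and 665 without the NOD array of this comparison, 276 without the FVB array against MLN, and 0 when arrays were centred on their medians and not loess-normalized (limma, 1126 genes at an unadjusted p under 0.05). With median centring all 589 kept the sign of their mean, but 211 of them had the same sign on all 3 arrays, against 587 with loess. Of the 148 called genes that are named by the rule given in the processing summary, 21 kept their call without any 1 of the 3 arrays, among them Aldh1a2, Asb2, Cd207, Clec7a, Cyp26b1, Fn1, Fndc5, Gbp2b, Gfi1, Hic1, Il18bp, Klrd1, Lum, Marco, Nt5e, Parm1, S100a6, Tbxas1 and Thbs4. Without the NOD.B10 array 127 of the 148 lost it.

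**Figure D1:**
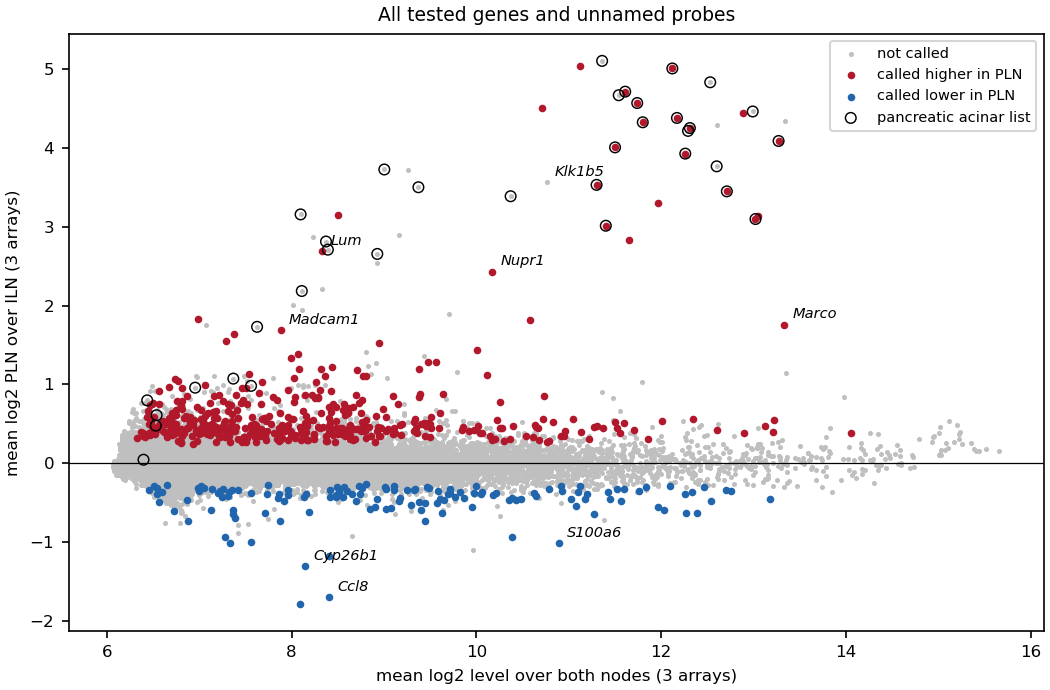
Mean log2 ratio of PLN over ILN (vertical axis) against the mean log2 level in both nodes (horizontal axis) over the 3 arrays, a dot for each of the 29933 genes or probes tested. Red and blue dots passed an adjusted p of 0.05 (451 higher, 138 lower), and open circles are members of the acinar list.

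Promoters of 3 genes that were higher in PLN are shown because a search of their letters for a regulatory motif found a match. They are RefSeq sequences of build GRCm38.p6, read 5′ to 3′ on the gene's strand from 250 bases before to 50 bases after the start site. The Madcam1 promoter lies at chr10:79664309-79664608 (plus strand), that of Marco at chr1:120504975-120505274 (minus strand) and that of Hmgcs1 at chr13:119690101-119690400 (plus strand). Capitals mark GGGNNTTTC on either strand in Madcam1 and Marco, which resembles part of the site of the transcription factor NF-kB, and TCACNCCAC on either strand in Hmgcs1, which resembles the sterol regulatory element.
Madcam1: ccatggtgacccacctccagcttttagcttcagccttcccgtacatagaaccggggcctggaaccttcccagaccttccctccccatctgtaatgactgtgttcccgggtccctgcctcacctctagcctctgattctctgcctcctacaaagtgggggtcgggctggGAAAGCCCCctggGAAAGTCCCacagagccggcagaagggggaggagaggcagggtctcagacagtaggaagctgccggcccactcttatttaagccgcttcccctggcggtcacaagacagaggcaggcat
Marco: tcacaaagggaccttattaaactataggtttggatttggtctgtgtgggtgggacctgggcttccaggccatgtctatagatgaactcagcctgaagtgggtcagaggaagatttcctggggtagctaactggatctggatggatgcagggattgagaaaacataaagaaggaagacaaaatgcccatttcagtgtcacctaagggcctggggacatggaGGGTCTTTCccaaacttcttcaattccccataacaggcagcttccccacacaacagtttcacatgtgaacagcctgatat
Hmgcs1: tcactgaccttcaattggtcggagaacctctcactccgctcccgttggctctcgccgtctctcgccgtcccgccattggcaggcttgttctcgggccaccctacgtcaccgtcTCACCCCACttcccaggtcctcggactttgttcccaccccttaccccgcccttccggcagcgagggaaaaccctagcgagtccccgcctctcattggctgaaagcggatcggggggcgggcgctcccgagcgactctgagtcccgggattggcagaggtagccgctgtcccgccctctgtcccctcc
Madcam1 held its motif at 2 places, starting 82 and 69 bases before the start site, Marco at 1 place 30 bases before it, and Hmgcs1 at 1 place 137 bases before it. Of 32851 promoters of this length 4.36% hold the first motif and 1.24% the second. The motifs do not overlap, and they and the genes were picked with the ratios and the matches known, and a match is a description of letters, with nothing measured here about a factor at the site.

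Genes of macrophages gave more called members than any other list. Of 60 measured genes for macrophage receptors and complement, 15 rose in PLN (25%, against 1.51% of all genes), 0 fell and 45 did not pass. The share over all genes includes dim and unnamed probes, while 53 of the 60 were well above background in both channels of all 3 arrays. A fit to only such bright genes called 634 of 14930 higher. The list median was 0.23 against -0.003 over all genes tested. On the FVB, NOD and NOD.B10 arrays the list median was 0.08, 0.20 and 0.29, and with median centring 0.79, -0.25 and 0.24. Marco, a scavenger receptor of sinus and marginal zone macrophages, measured 1.91, 1.63 and 1.73 on those arrays. All values lay far above 0, and the fitted mean of 1.76 ± 0.09 (SE of the fit, n = 3) was a 3.38-fold difference with an adjusted p of 0.000203. Its log2 level was 13.9 to 14.6 in PLN and 12.3 to 12.7 in ILN, so the 2 nodes did not overlap.

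Other receptors of tissue macrophages rose by less. Adgre1, which encodes F4/80, measured 0.71, 1.30 and 1.31, lowest on the FVB array, though 1 of its 2 probes had the opposite sign. Csf1r, the receptor of the growth factor that macrophages depend on, measured 0.48, 0.87 and 0.96 (adjusted p = 0.0108), and the scavenger receptor Msr1 measured 0.71, 0.63 and 0.67. The sinus macrophage lectin Siglec1 (mean 0.59, 1 of 2 probes opposite), the mannose receptor Mrc1 (0.54), the haemoglobin receptor Cd163 (0.49), the beta-glucan receptor Clec7a (0.66), Stab1 (0.62), C1qc (0.55), C2 (0.45), Itgax (0.43), Ms4a7 (0.43) and the sterol-sensing nuclear receptor Nr1h3 (0.37) rose as well. The count was 18 without the FVB array (and 1 lower), 11 without NOD and 3 without NOD.B10. Members did not all lie above 0: Timd4, a receptor for dying cells, measured -0.42, -0.49 and -0.41, and Cd209f -1.47, -0.31 and -0.35, neither past the threshold and both named after their values were seen. Beside MLN, Marco was at -0.31, Csf1r at 0.22 and the list median at 0.02.

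**Figure D2:**
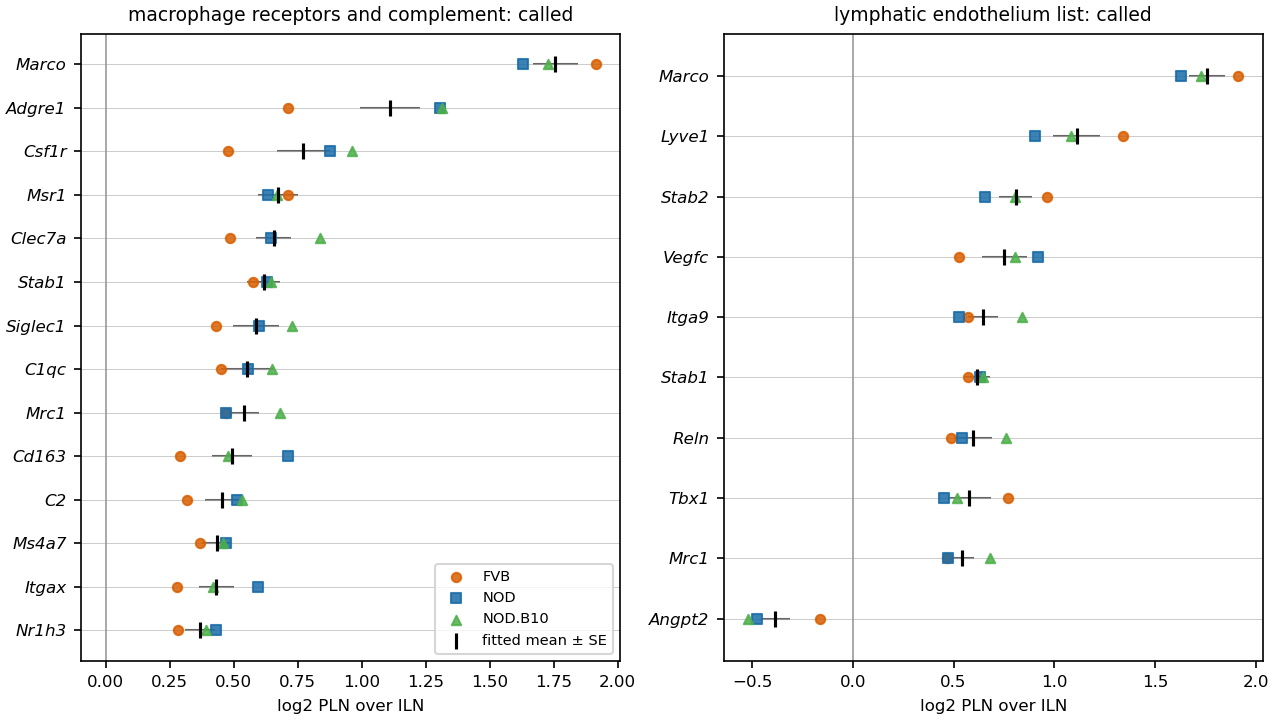
Log2 ratio of PLN over ILN (horizontal axis) of the called members of the macrophage and complement list (left) and of the lymphatic endothelium list (right). Coloured symbols are the 3 arrays and black ticks the fitted mean ± SE; Marco lies above 1.6 on every array and Angpt2 is the only gene drawn below 0.

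Of 31 measured genes that handle haem and iron, 6 rose (19.4%, against 1.51% of all genes), 0 fell and 25 did not pass. Hmox1, which breaks haem down, measured 0.51 on FVB, 1.43 on NOD and 1.66 on NOD.B10 (mean 1.20 ± 0.19, adjusted p = 0.0182). The iron exporter Slc40a1 measured 0.32, 1.67 and 1.60 (mean 1.20 ± 0.22, adjusted p = 0.0351). Both were above 0 on all 3 arrays, with FVB lowest. In ILN the Hmox1 level was 9.65 on FVB and 8.27 and 8.43 on the other arrays, while in PLN it was 9.70 to 10.2. The plasma iron carrier Trf (0.28, 0.90 and 1.14), the phagosomal metal transporter Slc11a1 (0.41, 0.92 and 0.82), the ferritin chain Fth1 (0.18, 0.43 and 0.55) and Cd163 had the same order, with FVB lowest. The count was 7 without the FVB array, 1 without NOD and 0 without NOD.B10. Erythroid genes, 14 measured and 0 called, had medians of -0.24, 0.19 and 0.23 on the 3 arrays, and their part in these ratios was not tested. Genes of lysosomes, where macrophages degrade what they take up, showed 5 of 39 higher (12.8%, against 1.51% of all genes) and 0 lower. The 5 were Psap (0.54), Lamp1 (0.46), Ctsz (0.42), Ctss (0.39) and Asah1 (0.28). Without NOD.B10 this count was 0, without NOD 1 and without FVB 4.

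Of 26 genes of lymphatic endothelium, 9 rose in PLN (34.6%, against 1.51% of all genes) and 1 fell (3.85%, against 0.461%). The other 16 did not pass, and the list median was 0.18. Of the 9, Marco, Mrc1 and Stab1 are also in the macrophage list. Lyve1, a hyaluronan receptor of lymphatic vessels and some macrophages, measured 1.34, 0.91 and 1.08 (mean 1.11 ± 0.12, adjusted p = 0.00390). The scavenger receptor Stab2, which binds hyaluronan on sinus endothelium, measured 0.97, 0.65 and 0.80 (adjusted p = 0.00348). The lymphatic growth factor gene Vegfc measured 0.53, 0.92 and 0.80, and the integrin gene Itga9, which lymphatic valves need, 0.57, 0.53 and 0.84. Reln (0.60) and the transcription factor gene Tbx1 (0.58) rose as well. Angpt2, a ligand of vascular remodelling, fell, at -0.16, -0.47 and -0.52. The defining lymphatic genes did not follow: Prox1 measured -0.19, -0.02 and -0.26 and was well above background in 1 of 3 PLN samples, and Flt4 was well above background in 0 of 3. Pdpn measured -0.66, -0.05 and -0.47. Without NOD.B10 the count of higher genes was 1, without NOD 7 and without FVB 8.

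Addressins are the vascular ligands that let lymphocytes leave the blood. Madcam1, the mucosal addressin bound by gut-homing lymphocytes and also made by marginal reticular cells, measured 0.82 on FVB, 1.95 on NOD and 2.30 on NOD.B10. Its log2 level was 8.06 to 9.43 in PLN and 6.74 to 7.24 in ILN, and the mean of 1.69 ± 0.23 had an adjusted p of 0.0107. Nkx2-3, a transcription factor needed for Madcam1 in gut-associated tissue, measured 1.29, 1.06 and 0.86 (mean 1.07 ± 0.13, adjusted p = 0.00720), with the strains in the opposite order. Beside MLN the means were 0.21 for Madcam1 and -0.23 for Nkx2-3. The gut chemokine gene Ccl25 lay between -0.11 and 0.01 and did not pass, and neither did the gut-homing integrin gene Itgb7 at -0.44, -0.12 and -0.22. Of 20 genes of the peripheral node addressin and of high endothelium 1 rose and 1 fell. Each was 5% of the list, against 1.51% higher and 0.461% lower over all genes. Spon1, a matrix protein, rose by 0.85 and Emcn, an endothelial sialomucin, fell, at -0.40, -0.40 and -0.47. Glycam1, Fut7 and Chst4, which build or carry that addressin, measured -0.15, -0.36 and -0.14 on average and did not pass.

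Retinoic acid, made from vitamin A, imprints gut homing on lymphocytes and shapes node stroma. Of 27 genes of its handling 4 rose (14.8%, against 1.51% of all genes), 1 fell (3.7%, against 0.461%) and 22 did not pass. The synthesizing enzyme Aldh1a2 measured 2.10, 1.24 and 1.32 (mean 1.55 ± 0.14, adjusted p = 0.00257). The degrading enzyme Cyp26b1 measured -1.42, -1.27 and -1.22 (mean -1.30 ± 0.08, adjusted p = 0.000261). Of all 29933, Cyp26b1 was the only gene at least 2-fold lower on each of the 3 arrays (0.00334%). On the level scale Cyp26b1 was at 7.13 to 7.79 in PLN and 8.35 to 9.06 in ILN, while Aldh1a2 was at 7.87 to 8.18 and 5.78 to 6.94. Of the genes that store and carry vitamin A, Lrat measured 0.63, 0.52 and 0.85 and the retinal reductase Dhrs3 0.72, 0.46 and 0.46. Beside MLN, Aldh1a2 was at -0.66 and Cyp26b1 at 0.02. Aldh1a2 also stands in a mesothelial list, of which it was the sole called member among 15. That list had a median of 0.31, and of 0.01, 0.30 and 0.33 on FVB, NOD and NOD.B10. On these arrays 8, 11 and 10 of its members lay above 0. Of defining mesothelial genes Upk3b was well above background in 1 of 3 PLN samples and measured -0.04, 0.14 and -0.12, and Msln measured 0.56, 0.55 and 0.36, neither past the threshold. The retinoic acid list median was 0.12, and -0.00 with median centring.

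Among 47 small leucine-rich proteoglycans and matrix glycoproteins, 10 rose (21.3%, against 1.51% of all genes) and 2 fell (4.3%, against 0.461%). The other 35 did not pass, and the list median was 0.12. Lum, which encodes the collagen-binding proteoglycan lumican, had the largest mean of the named called genes outside the acinar list. It measured 2.22, 2.92 and 2.92, a mean of 2.69 ± 0.13 or 6.43-fold (adjusted p = 0.000203). Its log2 level was 9.47 to 9.96 in PLN and 6.55 to 7.74 in ILN. Fibronectin, Fn1, measured 0.76, 1.32 and 1.48 (1 of its 3 probes opposite), and thrombospondin 4, Thbs4, 0.97, 0.70 and 0.75. Spon1, Mfap4 (0.66), Dcn (0.56), Postn (0.55), Matn2 (0.52) and Nid1 (0.45) also rose. Vitronectin, Vtn, rose by 1.12 ± 0.23, and beside MLN it was at 0.94. The small proteoglycan genes did not move together: Lum and Dcn rose, whereas Fmod fell (-0.62, -0.33 and -0.48) and so did Prelp (-0.43, -0.27 and -0.22). Without NOD.B10 the list had 3 higher genes and 0 lower, without NOD 7 and 1, and without FVB 7 and 0. Of 36 collagen chain genes 2 rose (5.56%): Col14a1, a fibril-associated chain, at 0.80, 0.88 and 0.85 (adjusted p = 0.0169), and Col2a1 at 0.26 on average.

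Signalling genes of the stroma changed in both directions. Of 44 genes of the Wnt, BMP and Hedgehog pathways 6 rose (13.6%, against 1.51% of all genes) and 1 fell (2.27%, against 0.461%). The BMP antagonist Grem1 (0.80, 1.06 and 0.64) rose, and so did Bmp4 itself (0.34), the Wnt antagonist genes Sfrp1 (0.64, 1 of 2 probes opposite) and Dkk3 (0.46), and the ligand gene Dhh (0.48). Wnt10a fell, at -0.43, -0.69 and -0.97 (adjusted p = 0.00897). These calls thinned to 0 of either sign without NOD.B10. The alarmin Il33, stored in nuclei of reticular and endothelial cells, rose at 0.85, 0.48 and 0.77 (adjusted p = 0.00657). The B cell survival factor Tnfsf13b fell slightly, at -0.26, -0.25 and -0.31. The smooth muscle genes Tagln (-0.64, -0.93 and -1.21) and Mylk (-0.60, -0.37 and -0.53) fell, while Myh11 measured -0.33, -0.01 and -0.11. Acta2 measured -0.17, 0.22 and 0.01, but 2 of its 3 probes had the opposite sign and the mean over all 3 was -0.38.

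Genes that mark position along the body showed a few calls. Of 34 Hox genes Hoxb2 rose (0.41, 0.23 and 0.52) and Hoxc9 fell. Hoxc9 was not well above background in any of the 3 PLN samples and was at least 1.52-fold lower there (adjusted p = 0.0472). Of 21 transcription factor genes of the splanchnic layer, which forms the viscera, Nkx2-3, Gata6 (0.50, 1 of 3 probes opposite) and Meis2 (0.49) rose. Of 30 of the limb and body wall, Prrx1 fell at -0.50, -0.55 and -0.70 (adjusted p = 0.0360), with all 4 of its probes below 0. The medians of the last 3 lists lay between -0.05 and -0.02. Higher genes made up 2.94% of the Hox and 14.3% of the splanchnic list, against 1.51% of all genes. Lower genes made up 2.94% of the Hox and 3.33% of the limb list, against 0.461% of all genes.

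**Figure D3:**
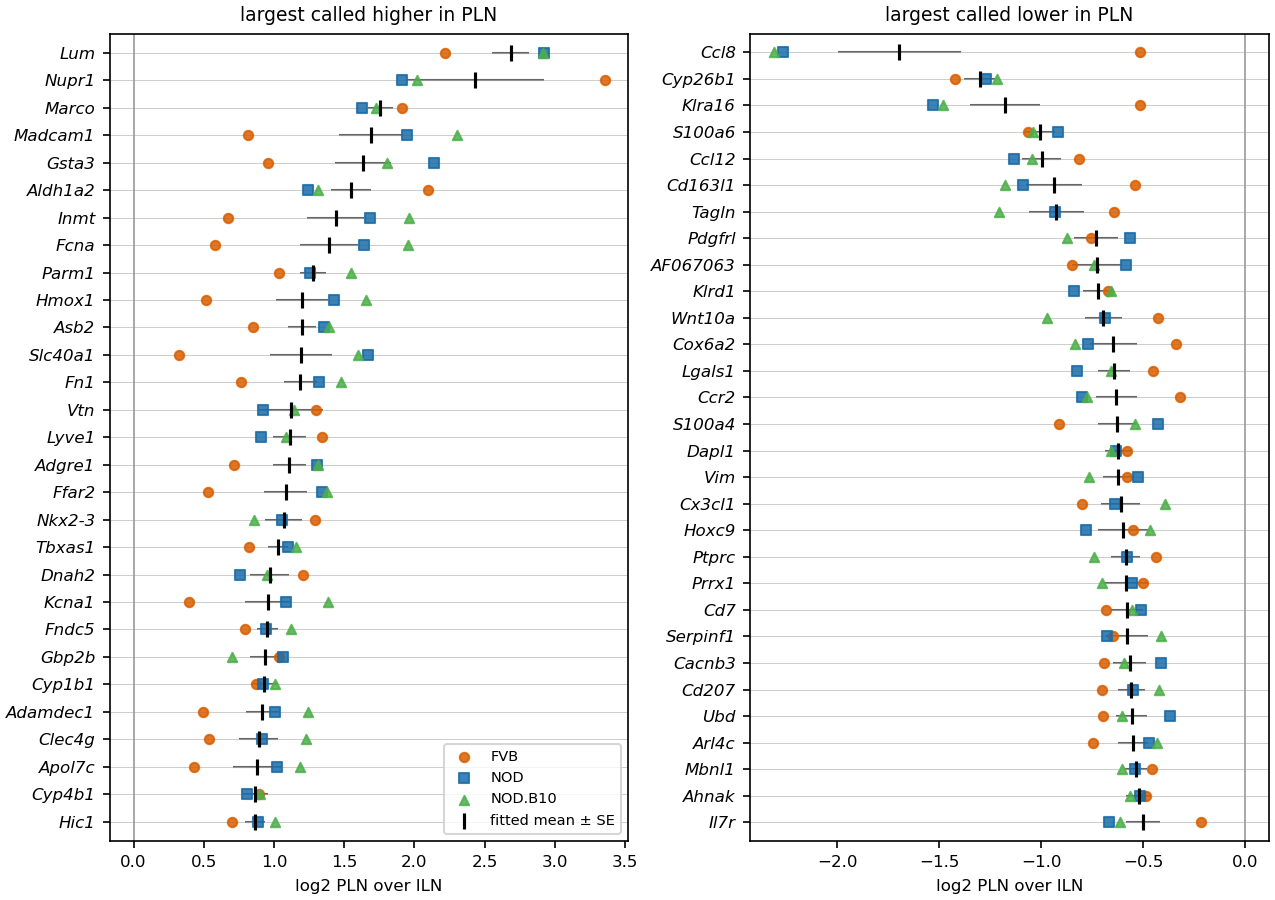
Named genes with the largest mean difference, up to 30 in each direction, outside the acinar list; the horizontal axis is the log2 ratio of PLN over ILN, symbols are the FVB, NOD and NOD.B10 arrays and ticks the fitted mean ± SE. Marco, Cyp26b1 and S100a6 lie close together over the strains, whereas Lum spans 2.22 to 2.92, Madcam1 spans 0.82 to 2.30 and Ccl8 -2.31 to -0.52.

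Parm1, a mucin-like membrane protein gene, measured 1.04, 1.26 and 1.55 (mean 1.28 ± 0.09, adjusted p = 0.000729). Asb2, a ubiquitin ligase subunit, measured 0.85, 1.36 and 1.39, and Tbxas1, the thromboxane synthase of macrophages and platelets, a mean of 1.03 ± 0.07 (adjusted p = 0.000635). Each of these rose in all 3 strains by more than the spread between the strains. Ffar2, a receptor for short-chain fatty acids, measured 0.53, 1.34 and 1.38, and the ficolin gene Fcna 0.58, 1.64 and 1.95, with FVB lowest for both. The detoxifying enzymes Gsta3 (0.96, 2.14 and 1.81), Inmt (0.67, 1.68 and 1.96) and Cyp1b1 (mean 0.93) rose as well. Nt5e, the ectoenzyme CD73 that makes adenosine, measured 0.80, 0.65 and 0.77 (adjusted p = 0.000810). The interleukin 18 antagonist Il18bp measured 0.71, 0.62 and 0.58, and the transcriptional repressor genes Gfi1 and Hic1 0.77 and 0.86 on average.

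Genes lower in PLN included ligands and receptors that draw monocytes. Of 33 chemokine ligand genes 3 fell (9.09%, against 0.461% of all genes), 0 rose and 30 did not pass. Ccl8 measured -0.52 on FVB, -2.27 on NOD and -2.31 on NOD.B10 (mean -1.70 ± 0.30, adjusted p = 0.0311). Its ILN level was 10.1 and 10.2 in the latter strains and 7.46 in FVB, while the PLN level was 6.94 to 7.88. Ccl12 was more even, at -0.82, -1.13 and -1.05 (adjusted p = 0.00278), and Cx3cl1, a membrane-bound chemokine, measured -0.80, -0.64 and -0.40. The monocyte receptor Ccr2 fell too, at -0.32, -0.80 and -0.78. The homeostatic chemokines that organise the node did not pass: Cxcl13 measured -0.78, -0.31 and -0.20 and Ccl19 -0.33, 0.42 and 0.55. Without NOD.B10 0 chemokine ligands were called, without NOD 1 fell, and without FVB 2 fell and 3 rose.

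Of 36 genes for S100 proteins, annexins and the effector cytoskeleton, 6 fell (16.7%, against 0.461% of all genes), 1 rose and 29 did not pass. Well above background in both channels of all 3 arrays were 30 of the 36. The fit to only such bright genes called 187 of 14930 lower. S100a6, a calcium-binding protein, measured -1.07, -0.92 and -1.04 (mean -1.01 ± 0.07, adjusted p = 0.000789). Its log2 level was 10.1 to 10.7 in PLN and 11.1 to 11.8 in ILN. S100a4 (-0.91, -0.43 and -0.54), S100a10 (-0.34), the galectin gene Lgals1 (-0.45, -0.82 and -0.66), the intermediate filament gene Vim (-0.58, -0.53 and -0.77) and Ahnak (-0.49, -0.51 and -0.56, with all 6 probes below 0) fell. Anxa3 rose by 0.38. The count of lower genes was 6 without FVB, 6 without NOD and 1 without NOD.B10. Beside MLN, S100a4 was at 0.68 and S100a6 at 0.21.

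Naive T cell genes were mostly below 0: of 37 measured, 24 lay below 0 on all 3 arrays and 2 above 0 on all 3. Among all genes tested, 43.9% had the same sign, in either direction, on all 3 arrays. The list median was -0.23 (-0.23, -0.20 and -0.24 by array). Of the 37, 7 fell (18.9%, against 0.461% of all genes), 1 rose (2.7%, against 1.51%) and 29 did not pass. Dapl1, high in resting T cells, measured -0.58, -0.63 and -0.66 (mean -0.62 ± 0.07, adjusted p = 0.00393). The interleukin 7 receptor Il7r measured -0.22, -0.67 and -0.61. Satb1 (-0.38), Txk (-0.45), Cd6 (-0.30) and Klf2 (-0.36) fell as well, and Rgs10 rose by 0.38. For Klf2 1 of 2 probes had the opposite sign, and its mean over both was 0.10. Core T cell genes did not all move: Cd3e measured 0.01, 0.08 and 0.02 and Cd4 0.03, 0.18 and -0.02. The pan-leukocyte gene Ptprc fell, at -0.44, -0.58 and -0.74. Median centring left the list median below 0 at -0.13 but put the array medians at 0.78, -1.07 and -0.14. Without NOD.B10 0 members were called, without NOD 3 fell and without FVB 4.

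Of 47 genes of cytotoxic and natural killer cells 7 fell (14.9%, against 0.461% of all genes), 0 rose and 40 did not pass. Klrd1, which encodes CD94, measured -0.67, -0.84 and -0.66 (mean -0.72 ± 0.07, adjusted p = 0.00325). Cd7 (-0.68, -0.51 and -0.56), Nkg7 (-0.60, -0.28 and -0.50), Gzmm (-0.31) and Txk fell, and Gzmc was not well above background in PLN and at least 1.29-fold lower there. The Ly49 receptor gene Klra16 measured -0.52, -1.53 and -1.48 (adjusted p = 0.0146). Klra genes are near-identical copies that vary between strains, so which copy a probe measured is uncertain. The main effector genes Prf1 (-0.32, -0.20 and -0.16), Gzmb (-0.25, 0.03 and 0.33) and Ccl5 (-0.16, -0.15 and -0.24) did not pass. Without NOD.B10 1 gene of the list was called lower, without NOD 4 (and 2 higher) and without FVB 4. The Langerhans cell lectin Cd207 fell, at -0.70, -0.55 and -0.42 (adjusted p = 0.00684), and so did Cacnb3, a gene of migratory dendritic cells, at -0.69, -0.41 and -0.59. Of 37 measured genes of dendritic and Langerhans cells, however, 2 rose, 2 fell and 33 did not pass, with a list median of -0.002. That is 5.4% in each direction, against 1.51% higher and 0.461% lower over all genes. Cd163l1, a scavenger receptor of gamma delta T cells in skin-draining nodes, measured -0.54, -1.09 and -1.18. Of 27 genes of gamma delta, type 17 and innate lymphoid cells 1 rose, 1 fell (3.7% each) and 25 did not pass.

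Enzymes of cholesterol synthesis rose by small amounts. Of 33 genes of cholesterol and fatty acid synthesis 5 rose (15.15%, against 1.51% of all genes) and 1 fell (3.03%, against 0.461%). Hmgcs1, whose promoter is printed above, measured 0.39, 0.29 and 0.53 (mean 0.40 ± 0.08, adjusted p = 0.0443). Sqle (0.34, 0.71 and 0.65), Idi1 (0.87, 0.27 and 0.53), Msmo1 (0.51, 0.36 and 0.38) and Fdps (0.26, 0.35 and 0.50) act in the same pathway. The 5 that rose are enzymes of sterol synthesis, and the gene that fell, Scd2 (-0.33, -0.42 and -0.24), desaturates fatty acids. None of the list was called without the NOD.B10 array, and 3 rose without either other array. Of 41 heat shock and chaperone genes 3 rose (7.32%): Hspa1a (0.99, 0.49 and 0.55, 1 of 4 probes opposite), Hspa8 (0.42) and Dnajb1 (0.30). Of these 0 were called without NOD.B10, and 1 chaperone gene was called without either other array.

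Genes at least 2-fold higher in PLN on each of the 3 arrays numbered 56 (0.187% of all), and 30 of these were called. Acinar genes made up 27 of them, 13 had no symbol, and 16 had a symbol outside the acinar list. They included Lum, Marco, Aldh1a2 and Parm1, described here, and genes whose ratio to MLN was high as well. Nupr1, a stress-induced chromatin protein gene that acinar cells express, measured 3.36, 1.91 and 2.02 and 2.42 beside MLN. The tissue kallikrein genes Klk1b5 (5.48, 2.62 and 2.60), Klk1b3 (4.40, 2.01 and 2.26), Klk1b8, Klk1b4 and Klk13 did not pass (adjusted p = 0.0920 for Klk1b5), and Klk1b5 was at 3.87 beside MLN. These serine proteases are near-identical copies, so a probe can measure several. The serine protease inhibitor gene Serpini2 (4.10, 2.58 and 1.92), the metallothionein gene Mt2 (3.17, 1.30 and 1.22) and Reg3d (1.93, 1.52 and 1.81) did not pass either. Fitted to the 3 arrays alone with limma, Reg3d (adjusted p = 0.00530) and Serpini2 (adjusted p = 0.0484) passed. Amy1, the amylase gene, was saturated in PLN on all 3 arrays and on average at least 20.2-fold higher. The median of the 35 acinar genes, of which 13 rose, was 4.39 on FVB, 2.81 on NOD and 3.55 on NOD.B10, and the genes just named were likewise highest on FVB, Reg3d by the smallest margin. Without the FVB or the NOD.B10 array 0 of the 35 acinar genes were called (with limma), and 1 was called without NOD. Of the MLN arrays, leaving out FVB gave 0 and leaving out BALB/c gave 26. The count was 25 with the 3 arrays alone, 27 with the later scanner's arrays and 24 with the stricter filter, and 0 with offset 0, median centring, Agilent's LogRatio or the deposited table. Beyond acinar cells, 1 of 24 islet genes (Cpe, 0.52) and 1 of 17 duct genes (Krt20, at 0.32, 0.34 and 0.41) rose, each a single gene beside 1.51% of all genes. Without NOD.B10 the adjusted p was 0.0960 for Cpe and 0.345 for Krt20 (limma), and Krt20 also missed the threshold without either other array.

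**Figure D4:**
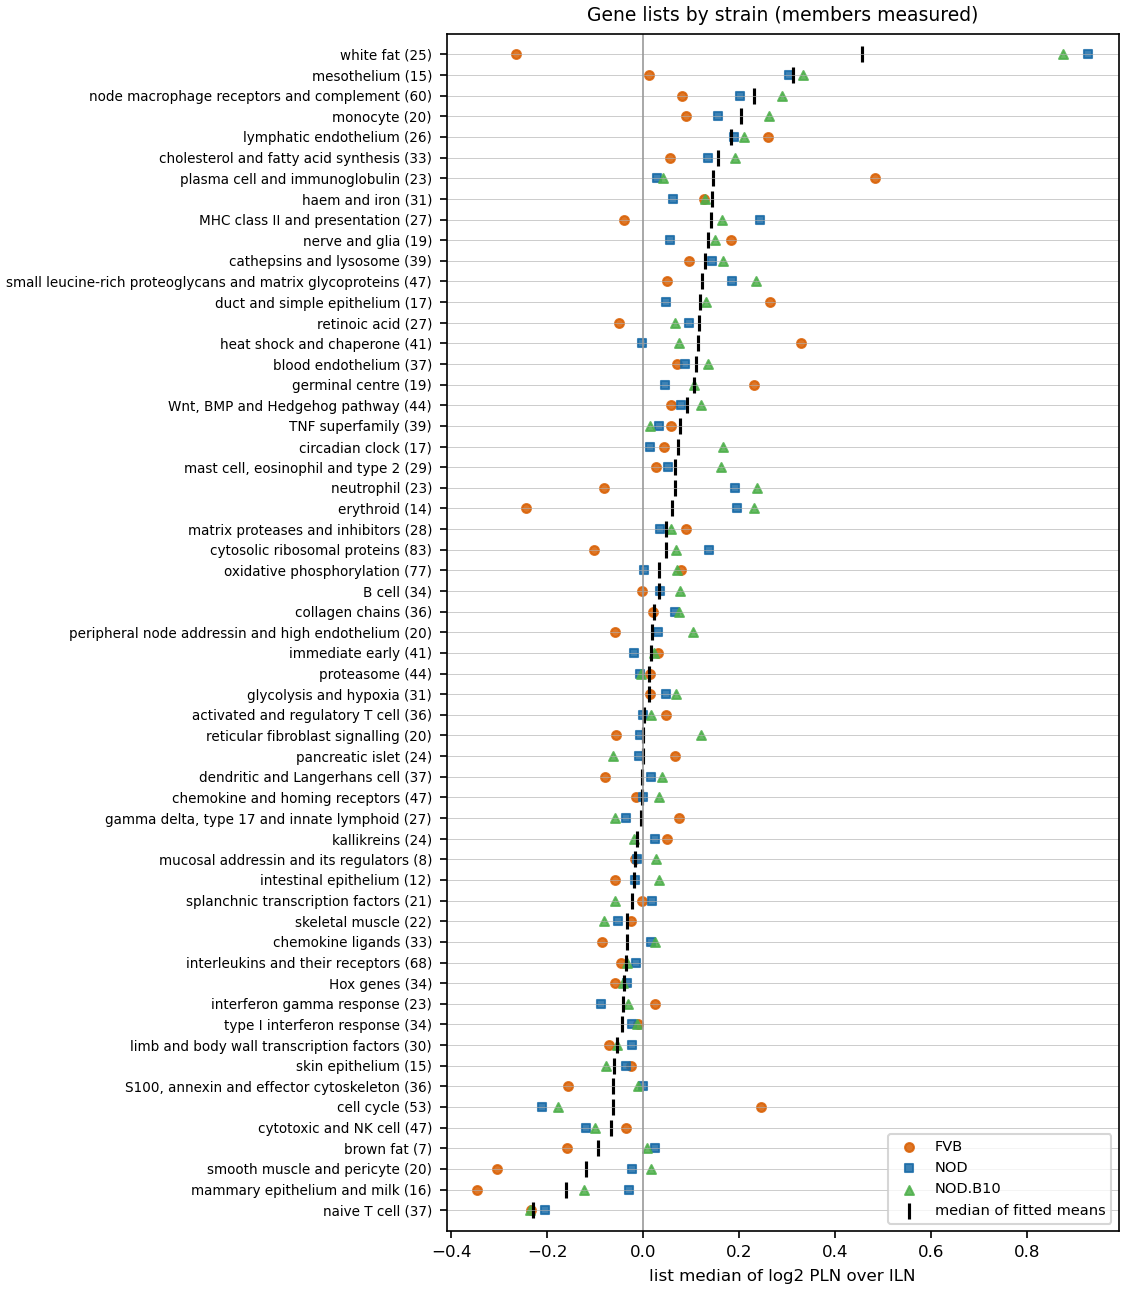
Median log2 ratio of PLN over ILN (horizontal axis) of 57 gene lists on each array, the acinar list being left out, with the number of measured members in brackets. Ticks are the median of the fitted means; the white fat list spans -0.27 to 0.93, while the naive T cell list lies at -0.24 to -0.20 on every array (with median centring it is above 0 on FVB, and so is the white fat list).

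White fat genes, 25 measured and 0 called, had a median of -0.27 on FVB, 0.93 on NOD and 0.88 on NOD.B10, and 1, 22 and 21 of them lay above 0. The adipokine gene Adipoq measured -0.27, 1.52 and 1.72. Its log2 level was 8.51 to 9.35 in PLN of all strains, but 8.78 in ILN of FVB and 7.18 and 7.63 in ILN of NOD and NOD.B10. Retn measured -0.27, 0.93 and 0.70, whereas Lep, the leptin gene, was well above background in 0 of 3 PLN samples. With median centring the fat medians were 0.42, 0.30 and 0.89, so the sign on FVB turned. Median centring moved other lists on FVB too: B cell genes had a median of 0.95 there, proteasome genes 1.07 and Hox genes -0.24. With Agilent's LogRatio the fat medians on FVB, NOD and NOD.B10 were -0.39, 1.24 and 1.45. Genes of milk and mammary epithelium, 16 measured and 0 called, had medians of -0.35, -0.03 and -0.12. The casein gene Csn1s2a was not well above background in PLN and on average at least 1.58-fold lower there, without passing the threshold. Its mean rested largely on FVB: it was -0.23 without FVB, -1.04 without NOD and -0.998 without NOD.B10. How fat or gland in the dissected tissue entered other ratios was not tested.

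Plasma cell genes showed the reverse order. The 23 measured, 0 of them called, had medians of 0.48, 0.03 and 0.04, with 22 above 0 on FVB. Jchain, the joining chain of secreted antibodies, was at log2 levels of 11.9 to 12.6 in PLN of all strains and of 12.2 and 11.7 in ILN of NOD and NOD.B10, but of 9.93 in ILN of FVB. Cell cycle genes, 53 measured and 0 called, had medians of 0.24, -0.21 and -0.18, and 42, 6 and 12 of them lay above 0. Ccnb1, a mitotic cyclin gene, measured 1.11, -0.24 and -0.22. Under median centring the plasma cell medians were 1.42, -0.76 and 0.11 and the cell cycle medians 0.63, -0.76 and -0.18. The single array for each strain allowed no test of these differences.

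**Figure D5:**
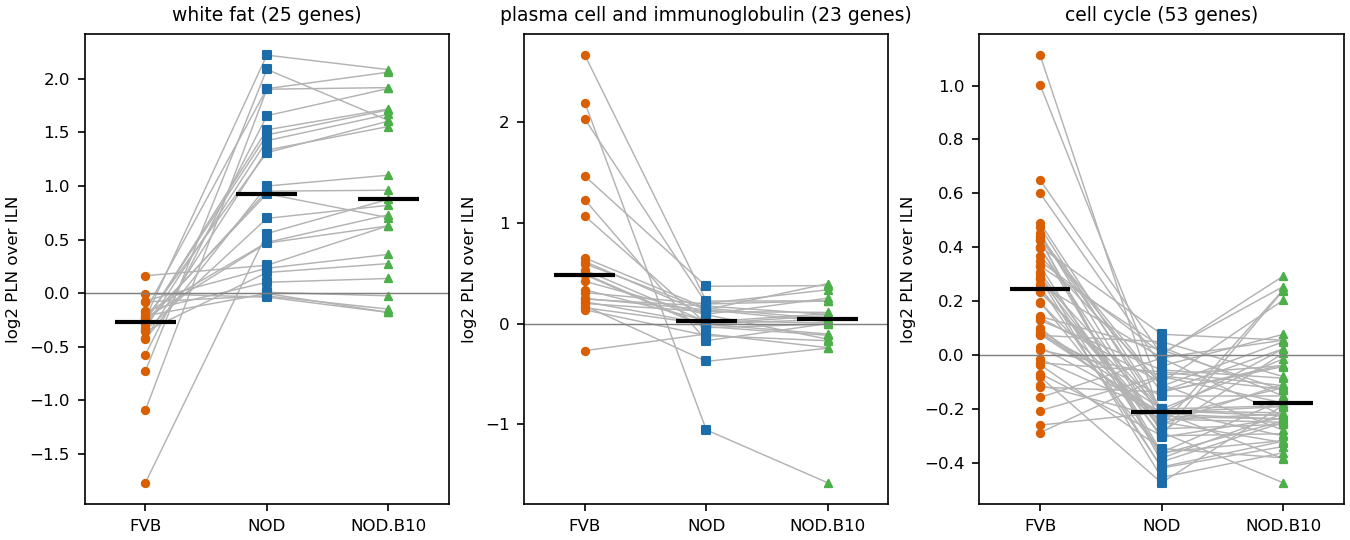
Log2 ratio of PLN over ILN (vertical axis) of each measured white fat, plasma cell and cell cycle gene on the 3 arrays, with grey lines joining a gene and black bars at the list medians. Fat genes are low and plasma cell and cell cycle genes high on FVB relative to the other arrays. With median centring the fat median on FVB is above 0, as are the plasma cell and cell cycle medians.

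Only 9 genes (0.0301%) were at least 2-fold higher on an array and at least 2-fold lower on another. Of these 5 were saturated spots, which give no usable ratio, and 1 had no symbol. Cfd, the fat-derived complement factor D, measured -1.09, 1.90 and 1.92. S100a9, a neutrophil calcium-binding protein, measured -1.47, 0.75 and 1.01. The protease inhibitor Slpi went the other way, at 2.19, -1.05 and -1.58. Genes at least 2-fold higher in PLN numbered 314 on the FVB array, 123 on NOD and 114 on NOD.B10, and genes at least 2-fold lower 19, 12 and 16.

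Several lists had no called member, which is near the 1.97% over all genes for lists of their size. Of 34 B cell genes 0 were called, with a list median of 0.03 and members between -0.30 and 0.36. Type I interferon response genes (34 measured, median -0.04), interferon gamma response genes (23, -0.04) and proteasome genes (44, 0.01) also had 0 called. These counts cover listed members only: Gbp2b, called higher, and Ubd, called lower, are in none of these lists. Of 83 cytosolic ribosomal protein genes only Rps3a1 fell, by 0.34, and of 77 genes of oxidative phosphorylation Atp5a1 rose by 0.30 and Cox6a2 fell by 0.65. With 3 arrays, a missed threshold does not show that these genes were equal in both nodes.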

How the data were processed

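Each array was a dual-colour Agilent whole mouse genome array read with Feature Extraction 8.5.1.1, per the file headers, and the authors deposited each array's scanner output. The deposited spot brightness is an intensity for each dye, with 0 or 1 marks for saturated, outlying and well-above-background spots, and the file headers give Agilent's LogRatio as log10 of Cy5 over Cy3. The authors' deposited value table holds log2 ratios equal to the processed signals minus a constant for each array (r = 1), so its scale and direction are known and the reason for its constant is not; its medians on the 3 arrays were 0.01, 0.05 and 0.01.

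Intensities were background-corrected with normexp (offset 50) and loess-normalized within each array with limma 3.58.1 in R 4.3.3. Control spots and outlier marks were left out. A probe stayed if at least 3 of the arrays held it well above background, which kept 35817 of 41174 probes (87.0%). A gene was represented by a single probe, and probes of the opposite sign are named. RefSeq accessions gave names to 22072 probes and probe descriptions to 1213, and 17889 have no symbol here. limma (lmFit, eBayes) was fitted to all 7 arrays with a mean for each kind of comparison, with 5 residual degrees of freedom, and p-values (two-sided) received a Benjamini-Hochberg adjustment across the 29933 genes tested. Each ± is the standard error of that fit. The p-values measure the spread between pools of different strains, so a strain difference counts as error, and the number of arrays limits the precision. The fit was also run on simulated log2 ratios with known changes, drawn independently for each gene and array. Such values hold no dye effect, intensity trend or RNA pool shared between arrays, so that run cannot speak to those.

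The genes named are the 30 with the largest mean in each direction, up to 6 called members a direction and the first 3 of each list, up to 15 at least 2-fold on every array or opposed between arrays, and the 10 with the lowest p in each direction. The other called members of a list and the uncalled marker genes given beside them were named after their values were seen. Some genes are not reported here, and the figures leave them out. The comparison, the 58 lists and the motifs were chosen with earlier results of these data known. Alternatives covered the scaling, background correction, Agilent's and the deposited ratios, the filter, the choice of probe, the scanner, strain blocks, array weights and each array left out.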

Additional observations from a re-analysis of the deposited data

Results flagged for a closer look

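The strains moved in opposite directions for 3 genes, and with 1 array for each strain the difference between strains was not tested. Cfd was at -1.09 on FVB against 1.90 on NOD and 1.92 on NOD.B10, so that FVB stood apart from both. Its FVB value turned to 0.18 with median centring, which also put the B cell list median on FVB at 0.95. S100a9 was at -1.47 on FVB against 0.75 and 1.01, a difference of -2.35 between FVB and the mean of the others. With median centring it was at -0.42, -0.00 and 1.08, so that NOD no longer opposed FVB. Slpi was at 2.19 on FVB against -1.05 and -1.58, a difference of 3.51, and kept these signs with median centring.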

How the results depend on the processing

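The 589 called genes (451 higher, 138 lower) kept the sign of their mean under every alternative that tested them, except 2 with the mean of all probes of a gene. With median centring 211 of them had the same sign on all 3 arrays, against 587. The count moved widely. It was 0 (0 higher, 0 lower) with median centring (limma, 1126 at an unadjusted p under 0.05, lowest adjusted p 0.0739), 59 (51 and 8) with normexp at offset 0, 69 (57 and 12) with Agilent's LogRatio, 36 (30 and 6) with the deposited table, 208 (176 and 32) with the 3 arrays alone, 335 (268 and 67) with the later scanner's arrays only and 1566 (1058 and 508) with array weights. Leaving out each array in turn gave 39 to 739 called genes, 35 to 548 higher and 4 to 208 lower. The other settings stayed within 1.5 times of each count. The share of higher calls was 76.6% and moved most to 89.7% without the NOD.B10 array and to 67.6% with array weights. With the mean of all probes of a gene, Acta2 turned to -0.38 (adjusted p = 0.0312, limma) and Klf2 to 0.10. The cause of these changes was not tested. No paired analysis was possible because each ratio already sets the nodes of a strain against each other within an array and replicate numbers only name arrays. Probes not well above background in PLN give only bounds.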

Other observations

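Genes of monocytes moved in both directions: of 20 measured, 3 rose (15%, against 1.51% of all genes) and 4 fell (20%, against 0.461%). Fn1 rose by 1.19 and Treml4, a receptor of the patrolling subset, by 0.80, while Ccr2, which marks the inflammatory subset, fell with S100a4 and S100a6. The receptor gene Cx3cr1, also of the patrolling subset, was not called here or in any of 20 alternatives. Its mean was 0.40 without FVB, 0.29 without NOD and 0.22 without NOD.B10. Whether a monocyte subset differed between the nodes was not tested. The nuclear receptor gene Nr4a1, which patrolling monocytes need, rose by 0.47, but it lost its call when any of the FVB, NOD and NOD.B10 arrays was left out. Treml4 and Ccr2 lost theirs without NOD or without NOD.B10. Without the NOD.B10 array 1 gene of the list rose and 1 fell.

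Among 36 genes of activated and regulatory T cells, Nt5e (0.74), the costimulatory receptor Tnfrsf9 (0.61) and the inhibitory receptor Pdcd1 (0.47) rose and 0 fell. Of 68 interleukins and receptors Il33, Il18bp and Il11 (0.44) rose, and Il7r (-0.50) and Il15 (-0.28), both part of lymphocyte survival signalling, fell. Kit, the stem cell factor receptor of mast cells and innate lymphoid cells, rose by 0.45. In blood endothelium, with 37 genes measured, Cd36 (0.46) and Mmrn2 (0.34) rose and Emcn (-0.42) and Rgcc (-0.40) fell. Of 19 genes of nerve and glia, the potassium channel gene Kcna1 (0.95) and the myelin gene Mbp (0.35) rose. Higher genes made up 8.33% of the T cell, 4.41% of the interleukin, 5.4% of the blood endothelium and 10.5% of the nerve list. The share over all genes was 1.51%. Lower genes made up 2.94% of the interleukin and 5.4% of the blood endothelium list, against 0.461% of all genes. Without the NOD.B10 array only Nt5e and Il18bp of the genes in this paragraph kept their call.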
